A study of Chlorella sp. with 12 samples.

Results

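*Chlorella* sp. TLD6B is a green alga from desert soil, and 155503 unigenes (assembled transcripts clustered into genes) were measured in 12 libraries of its RNA. Of these, 929 carried the Gene Ontology term for the G protein-coupled receptor signaling pathway. The 218 members described here were chosen by that term and by a mean FPKM of at least 1 over the 12 libraries, and 711 unigenes with the term fell below this threshold. FPKM is a fragment count corrected for unigene length and for the mapped fragments in a library. Each of 6 groups had 2 libraries. CK0 and CK18 were untreated cultures on day 0 and day 18. Nacl1 and Nacl2 had 0.1 M and 0.8 M NaCl added (low and high salinity), and PEG1 and PEG2 had 0.05 g/mL and 0.1 g/mL PEG-6000, a polymer that withdraws water. These 4 treated groups were also taken on day 18, and all cultures were of the same strain in BBM medium. The study calls the 2 libraries of a group biological replicates, and p-values measured the spread between them. In such bulk RNA, fewer cells of a kind and less RNA per cell cannot be told apart.

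In animals, a G protein-coupled receptor crosses the membrane with a bundle of helices and passes a signal to a heterotrimeric G protein, whose alpha subunit binds GTP. Receptors of family 3 (class C) carry a cysteine-rich stretch, the nine-cysteines domain, between the ligand-binding part and the membrane. The alpha subunit shares its GTP-binding fold with the small GTPases (Ras, Rab, Arf, SAR1 and Ran). Of these, Rab, Arf and SAR1 work in vesicle transport and Ran in nuclear import, without such receptors.

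The names that PFAM and SwissProt gave the members matched the term only in part. By their PFAM domains, 82 members held the nine-cysteines domain (PF07562) with the cysteine-rich region of TNF receptors (PF00020), and 29 held PF07562 without it. Another 69 matched the G protein alpha subunit (PF00503), 19 matched a seven-transmembrane family, 1 held a G gamma-like domain, and 18 held other domains to which the term is attached. The methods gave an e-value limit of 0.01 for PFAM, and 50 of the 69 PF00503 members also matched a small GTPase family. SwissProt named 15 members ADP-ribosylation factors, 10 Ras or Rab proteins, 6 SAR1 and 5 Ran-type nuclear GTPases, against 3 named G protein alpha subunits. Among the cysteine-rich members, 23 had SVEP1 and 14 a SCUBE protein as their best hit, both extracellular proteins with EGF-like repeats in animals, and 29 members were placed among fibrillin-like proteins in KOG. In all, 79 members had no SwissProt hit. The members are therefore called by their domain class below.

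Because the members were selected on their mean FPKM, levels are given as a description. Just above the threshold were Cluster-31803.19498 at 1.04, Cluster-31803.53520 at 1.045 and Cluster-31803.10533 at 1.051, and just below it Cluster-31803.49811 at 0.999, Cluster-31803.110821 at 0.991 and Cluster-31803.53318 at 0.988. These unigenes differed in domains: 2 of the members just inside had PF07562, as had Cluster-31803.49811 outside. Only 98 members had a group mean of at least 1 in all 6 groups, and 5 passed through 1 group. A member that passed only through the group where it is high had to differ between groups, so the counts of members below are read beside those of all unigenes and support nothing by themselves.

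**Figure D1:**
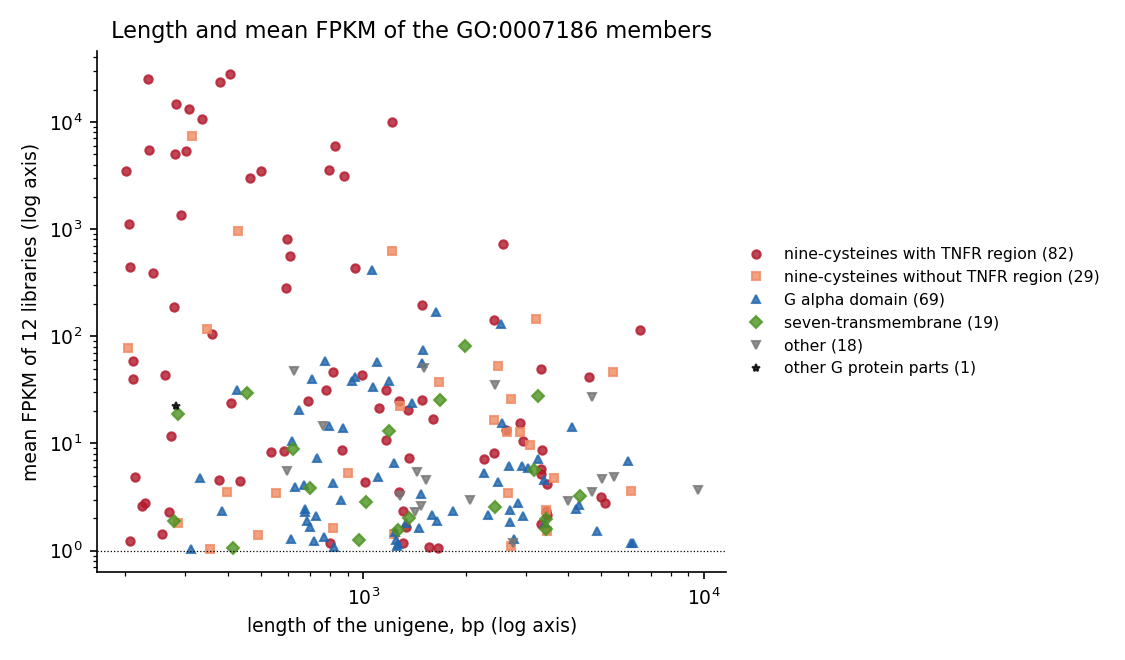
Length of each member (bp, log axis) against its mean FPKM over 12 libraries (log axis), 1 point per member, with a marker for each domain class and a dotted line at the threshold of 1. All 19 points above 1000 FPKM are nine-cysteines members, 18 of them with PF00020, and the G alpha class reaches 418 FPKM.

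Levels ran from 1.04 to 27686 FPKM. The median member had a mean FPKM of 6.72, 38 members were above 100 and 19 above 1000, and all 19 carried PF07562. The highest, Cluster-31803.55484, ranked 7 among all unigenes, and 3 members were among the 20 highest. The cysteine-rich members were often short: the class with PF00020 had a median length of 819 bp and 26 of its 82 members were under 400 bp, against a median of 1242 bp over all 38635 unigenes with a mean FPKM of at least 1. FPKM of such short unigenes depend strongly on the assembled length. Members also shared proteins: 138 had the same best hit in the NR protein database as another member, and 17 pointed to CHLNCDRAFT_145099 of *Chlorella variabilis*, 13 to CHLNCDRAFT_139472, and 11 each to CHLNCDRAFT_142476 and CHLNCDRAFT_55572. Reads of near-identical copies could be split between such unigenes, so values of single unigenes are uncertain there, and sums over the protein are given as well. Of the 218, 158 had a green alga as the species of the best NR hit, 7 an oomycete, 31 another organism and 22 no hit.

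Most of the FPKM of the members lay in the 111 cysteine-rich ones. Together these held 8.66% and 10.1% of all FPKM in the 2 CK18 libraries, 0.29% and 1.09% in CK0, 3.04% and 1.57% in Nacl1, and 0.0764% and 0.0848% in Nacl2. In PEG1 they held 6.25% and 5.35%, and in PEG2 16.3% and 8.53%. The libraries of Nacl2 were thus the lowest, those of CK0 next, and the libraries of CK18, PEG1 and PEG2 the highest, with CK18 and PEG2 overlapping. No overlap was seen between CK18 and either salt group. A few members carried these sums, since the 9 highest held 38.5% to 77.7% of the class total in the single libraries. The 69 G alpha members moved within 0.031% and 0.0828% of a library, with the highest values in Nacl2.

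**Figure D2:**
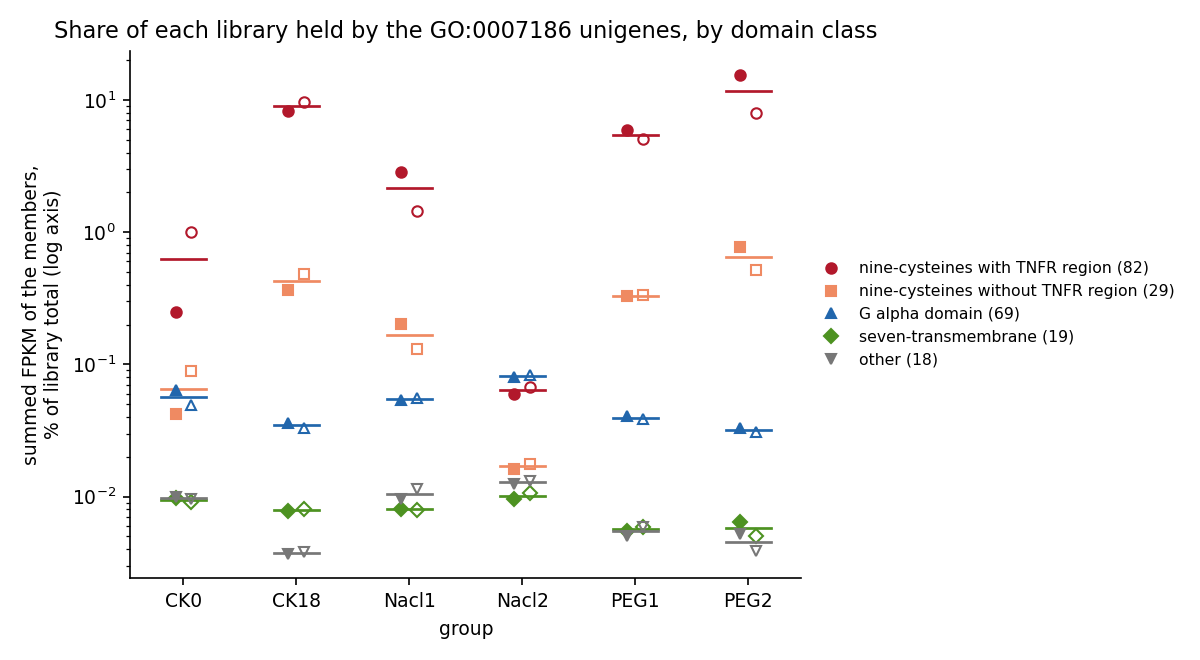
Summed FPKM of the members of each domain class as a percentage of the library total (log axis) in the 6 groups; filled markers are replicate 1, open markers replicate 2, and the short bars their mean. Both nine-cysteines classes are lowest in Nacl2, from 0.0163% to 0.0672%, and the class with PF00020 reaches 15.5% in PEG2 replicate 1.

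Cluster-31803.55484 (406 bp) had 36551 and 57036 FPKM in CK18, 1035 and 5100 in CK0, 14200 and 6837 in Nacl1, and 93.2 and 78.5 in Nacl2. In PEG1 it had 23415 and 26792 FPKM, and in PEG2 103787 and 57307. Both Nacl1 libraries lay below both CK18 libraries, and both Nacl2 libraries far below these. On FPKM as deposited, PEG2 replicate 2 (57307) lay barely above CK18 replicate 2 (57036). No difference between PEG2 and CK18 was called for this unigene. This unigene has SVEP1 as its SwissProt hit and CHLNCDRAFT_55572 as its NR hit. It fell by 2.72 ± 0.37 (SE) on the log2 scale in Nacl1 vs. CK18 (adjusted p = 0.0206) and by 9.30 ± 0.37 at high salinity (adjusted p = 0.000853, limma).

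The next members had the same shape. Cluster-31803.50470 (234 bp, NR hit CHLNCDRAFT_17735) had 55236 and 45805 FPKM in CK18, 13251 and 5589 in Nacl1, 52.8 and 85.3 in Nacl2, and 83623 and 42479 in PEG2. Cluster-31803.59157 (379 bp, a SCUBE hit) had 41011 and 48233 FPKM in CK18, 11756 and 5612 in Nacl1, 66.2 and 97.7 in Nacl2, and 85204 and 39751 in PEG2. Cluster-31803.59156 (282 bp) had 16764 and 30447 FPKM in CK18, 7286 and 3788 in Nacl1, 35.9 and 58.6 in Nacl2, and 56271 and 27910 in PEG2. For each of them both salt groups lay below CK18 without overlap, and PEG2 overlapped CK18. Among the members without PF00020, Cluster-31803.56643 (314 bp) was the highest, with 9285 and 14390 FPKM in CK18, 4608 and 2477 in Nacl1, and 31.0 and 35.7 in Nacl2. Cluster-31803.59158 (428 bp) had 1836 and 1816 FPKM in CK18 and 3.54 and 5.50 in Nacl2, and Cluster-31803.65107 (1217 bp) had 992 and 1053 FPKM in CK18 and 53.7 and 58.0 in Nacl2. All 3 were called lower in both salt groups.

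By length, 25 of the 36 tested members with PF00020 of at least 1000 bp were called lower in Nacl2 vs. CK18 and 3 higher, against 17 and 0 of 20 from 400 to under 1000 bp, and 20 and 0 of 22 under 400 bp. Without PF00020, 7 of 18 members of at least 1000 bp were lower and 4 higher. Over all unigenes tested, 12.9% were called lower and 22.4% higher. Cluster-31803.18492 (3224 bp, an SVEP1 hit, without PF00020) had 281 and 328 FPKM in CK18, 59.2 and 28.7 in Nacl1, 12.8 and 11.4 in Nacl2, and 3.50 and 3.67 in CK0. It fell by 4.88 ± 0.34 on the log2 scale in Nacl2 vs. CK18 (adjusted p = 0.00157).

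Summed by their NR protein, the members fell into a few patterns. Members of CHLNCDRAFT_55572 summed to 97892 and 125778 FPKM in CK18, 31306 and 14897 in Nacl1, 193 and 203 in Nacl2, 57820 and 59126 in PEG1, and 231257 and 118534 in PEG2. CHLNCDRAFT_145099 and CHLNCDRAFT_142476 had the same order of group means, with PEG2 highest and Nacl2 lowest. In each of these proteins PEG2 replicate 2 lay below CK18 replicate 2, so the libraries of PEG2 and CK18 overlapped. CHLNCDRAFT_142903 differed from them: its members summed to 50437 and 62155 FPKM in CK18, 444 and 429 in Nacl2, and only 124 and 276 in CK0, with PEG2 at 30292 and 23299 below CK18. CHLNCDRAFT_58424 followed the latter pattern, with 7636 and 9867 FPKM in CK18 and 46.3 and 55.1 in CK0. CHLNCDRAFT_139472 had 756 and 678 FPKM in CK18, 23.9 and 23.0 in Nacl2, and 23.4 and 21.1 in CK0.

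**Figure D3:**
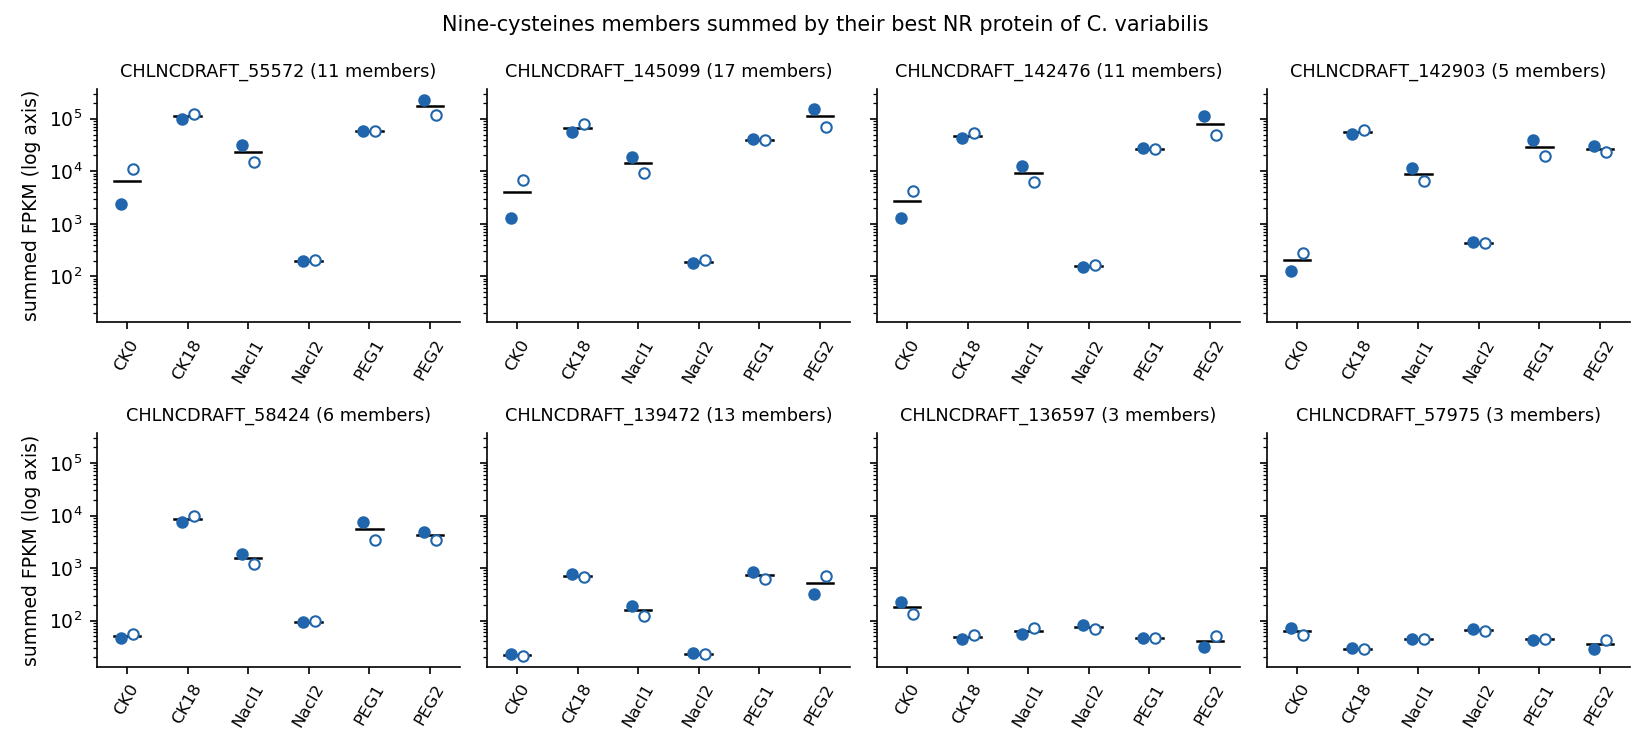
FPKM summed over the nine-cysteines members with the same best NR protein of *C. variabilis* (log axis) in the 6 groups; filled points are replicate 1, open points replicate 2, and the bars their mean. The first 6 proteins are lowest in Nacl2 or CK0, while CHLNCDRAFT_136597 and CHLNCDRAFT_57975 stay between 28.7 and 229 FPKM in all libraries.

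Fitted on sums over every unigene of the protein, members or not, these 6 proteins were lower in both salt groups. In Nacl1 vs. CK18 they fell by 2.84 to 3.25 on the log2 scale, as in CHLNCDRAFT_145099 (-2.84 ± 0.37, adjusted p = 0.0171) and CHLNCDRAFT_142903 (-3.25 ± 0.28, adjusted p = 0.0097). In Nacl2 vs. CK18 the change ran from -5.78 ± 0.36 in CHLNCDRAFT_139472 (adjusted p = 0.00113) to -9.42 ± 0.38 in CHLNCDRAFT_55572 (adjusted p = 0.000727). All 6 were lower in Nacl2 than in Nacl1. Other cysteine-rich members did not share this: CHLNCDRAFT_136597, with 43.9 and 53.7 FPKM in CK18 and 83.5 and 70.5 in Nacl2, gave 0.44 ± 0.22 (adjusted p = 0.181), and CHLNCDRAFT_57975 gave 0.98 ± 0.17 with a change just under the threshold of 1 (adjusted p = 0.0102).

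In Nacl1 vs. CK18, 212 members were tested and 56 called (26.4%), 7 higher and 49 lower, where 9.02% of all 72365 unigenes tested were called, 4.46% higher and 4.56% lower. The median log2 fold change of the members was -0.32, and 0.17 over all unigenes tested. Of the 49, 47 were cysteine-rich, out of 107 tested. The largest decreases were in Cluster-31803.52742, Cluster-31803.56685 and Cluster-31803.59180. Cluster-31803.52742 (241 bp, CHLNCDRAFT_55572) had 549 and 648 FPKM in CK18 and 80.9 and 19.1 in Nacl1. Cluster-31803.56685 (2884 bp, CHLNCDRAFT_145099) had 20.1 and 25.4 FPKM in CK18 and 1.45 and 1.31 in Nacl1. Cluster-31803.59180 (214 bp) was listed at 0 everywhere but in CK18 (25.8 and 33.1 FPKM), so it passed the threshold through CK18 alone and its decrease follows from the selection. The largest increases were in members whose CK18 libraries were both listed at 0: Cluster-31803.93441 (G alpha class) had 7.64 and 7.17 FPKM in Nacl1, Cluster-22802.0 (279 bp, secretin receptor family) 2.82 and 6.55, and Cluster-31803.34964 (397 bp, PF07562) 2.45 and 1.67. The group mean of Cluster-22802.0 reached 1 only in Nacl1 and PEG1. It passed the threshold through these groups, so its increase is not independent of the selection. On FPKM as deposited, without scaling of the libraries, the calls were 18 higher and 40 lower, and with quantile normalization 9 and 31. The calls rested on every library: without Nacl1 replicate 1 or replicate 2 none remained among members or all unigenes, without CK18 replicate 1 and 2 there were 4 and 7, and without Nacl2 replicate 1 and 2 there were 17 and 12, and with all 12 libraries in 1 fit 42 members were called.

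In Nacl2 vs. CK18, 123 of 212 members tested were called (58%), 35 higher and 88 lower, against 35.3% of all unigenes tested (22.4% higher, 12.9% lower). The median change of the members was -1.46, against 0.19 over all unigenes tested. Among the other 36972 tested unigenes with a mean FPKM of at least 1, 43.3% were called, with a median of 0.12. Summed over all unigenes with the same NR hit, 61 of 110 sums holding a member were called, 28 higher and 33 lower. The lean to decreases was thus weaker over sums than over single members. The cysteine-rich members gave 75 of the 88 decreases and 9 of the 35 increases, with a median of -4.84 over 107 tested, or -4.43 over the 84 whose 2 groups were both above 0. Leaving out any 1 library, 84 to 122 members were called. Among unigenes with PF00020 but without the GO term, 29 in number, 9 of 25 tested were called lower and 3 higher, with a median of -1.16. The difference between these 2 sets was not tested.

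The largest fitted decreases in Nacl2 vs. CK18 were in members listed at 0 in both Nacl2 libraries, for which no fold is given. Cluster-31803.89631 (201 bp) had 5521 and 6960 FPKM in CK18, Cluster-31803.69973 (291 bp) 2290 and 2524, and Cluster-31803.69308 (205 bp) 1378 and 2363. These unigenes were also low in Nacl1, at 835 and 358, 358 and 98.8, and 191 and 102 FPKM. In all, 17 of the 88 members called lower were listed at 0 in both Nacl2 libraries.

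In Nacl2 vs. CK18, 14 of the 67 tested G alpha members rose and 9 fell, which is 34.3% called. All unigenes tested had 35.3% called, and the other unigenes with a mean FPKM of at least 1 had 43.3%. The difference was not tested. Of the 18 members of the mixed class, 9 rose and 3 fell (66.7% called). Cluster-31803.93441 (5971 bp, G alpha class) had 25.5 and 22.9 FPKM in Nacl2, 7.64 and 7.17 in Nacl1, 7.97 and 5.19 in CK0, 2.86 and 3.90 in PEG1, and 0 in the libraries of CK18 and PEG2. Its PFAM domains include a RING finger and a short chain dehydrogenase beside PF00503, and its KOG name is a predicted E3 ubiquitin ligase. Summed with the other 17 unigenes of its NR protein, CHLNCDRAFT_142716, it gave -0.16 ± 0.21 at low salinity and 1.60 ± 0.21 at high salinity (adjusted p = 0.00433), and its 4 members together had 1.23 and 2.84 FPKM in CK18. Cluster-31803.46580 (3088 bp, PF07562 with a transporter domain) had 18.9 and 18.5 FPKM in Nacl2 and 0 and 0.21 in CK18, but 5.94 and 0 in Nacl1. Cluster-31803.34964 had 9.68 and 16.7 FPKM in Nacl2 and 0 in CK18. Cluster-31803.46580 passed the test in Nacl2 vs. CK18 (adjusted p = 0.0442, limma), but not in 4 of the 6 fits with 1 library left out: the adjusted p was 0.167 and 0.0966 without CK18 replicate 1 and 2, and 0.137 and 0.159 without Nacl2 replicate 1 and 2. No fold is given, since CK18 was at or near 0.

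**Figure D4:**
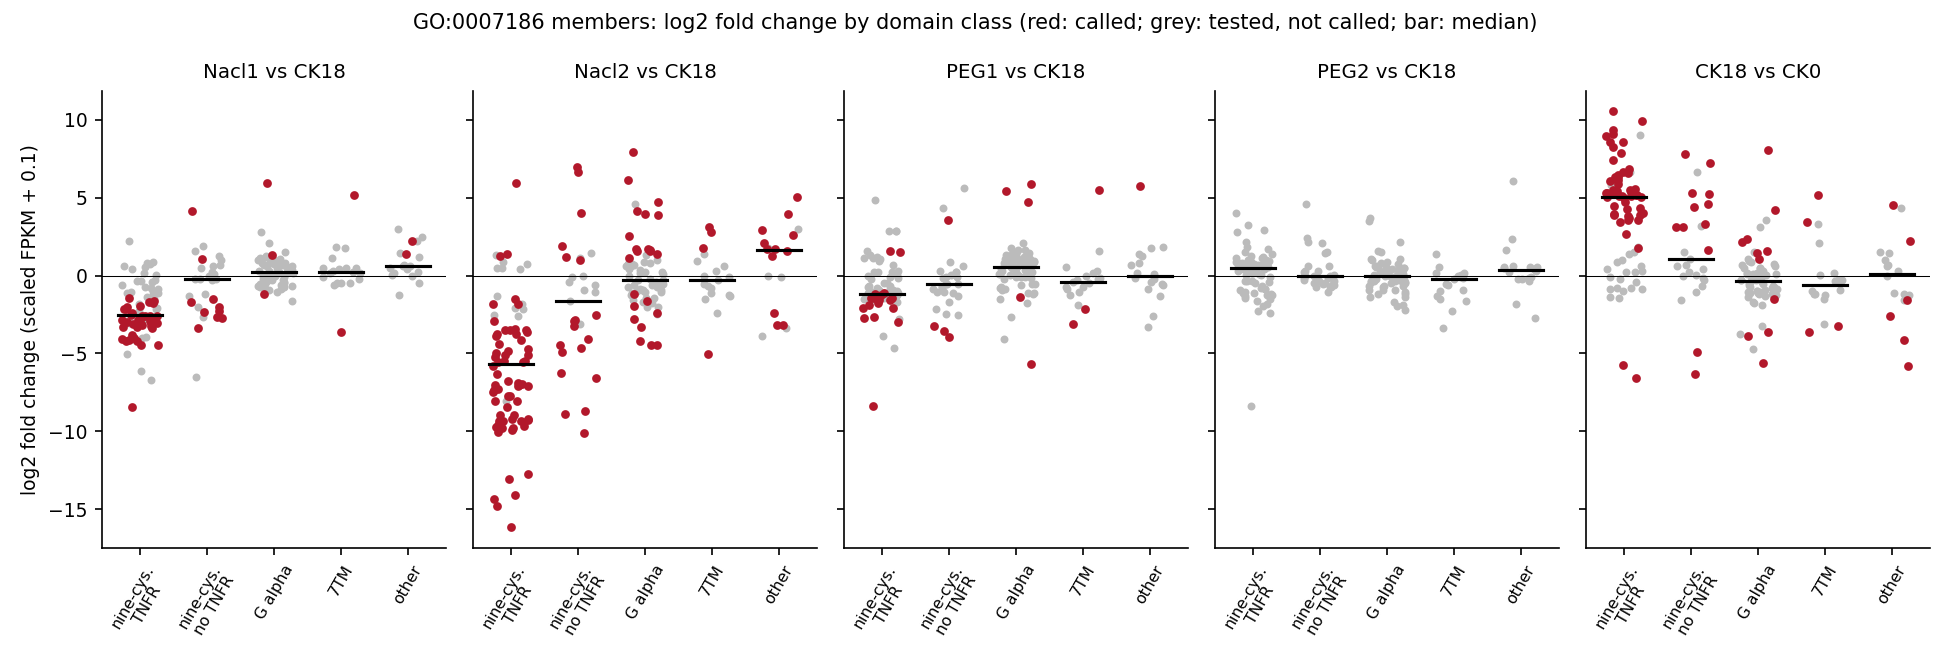
Log2 fold change (scaled FPKM plus 0.1) of each tested member in 5 comparisons, by domain class; red points were called, grey points were tested and not called, and bars are class medians. The median of the class with PF00020 is -2.56 in Nacl1, -5.69 in Nacl2 and 5.06 in CK18 vs. CK0; values beyond -10 in Nacl2 belong to members with at most 8.77 FPKM in Nacl2.

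Between the untreated groups, 89 of 209 members tested were called in CK18 vs. CK0 (42.6%), 75 higher and 14 lower, against 32% of all unigenes tested (13.7% higher, 18.3% lower). The median was 0.61 for the members and -0.41 for all unigenes tested. Of the 106 cysteine-rich members tested, 64 were higher in CK18 and 4 lower. Cluster-31803.45325 (796 bp, CHLNCDRAFT_142903) had 18.9 and 36.0 FPKM in CK0 and 8535 and 10237 in CK18, a rise of 9.32 ± 0.51 on the log2 scale (adjusted p = 0.0106). Cluster-31803.59181 and Cluster-31803.49961 (both 211 bp, CHLNCDRAFT_145099) were listed at 0 in CK0 and had 92.7 and 137, and 74.8 and 69.4 FPKM in CK18. The 3 largest decreases were in low members. Cluster-31803.46580 had 26.5 and 16.9 FPKM in CK0. Cluster-31803.26974, an elongation factor G with a Methuselah domain, had 25.1 and 15.7 FPKM in CK0 and 0 and 0.48 in CK18. Cluster-31803.50723 (270 bp, PF07562) had 11.7 and 14.2 FPKM in CK0 and was listed at 0 in CK18. Only in CK0 did its group mean reach 1, so it passed the threshold through that group. The 2 libraries of CK0 differed in the cysteine-rich members, as in Cluster-31803.59156 with 290 and 2744 FPKM. Without scaling, 67 were higher and 27 lower. Without CK18 replicate 1, 51 members were called, and without each of the other libraries of this fit 65 to 94.

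In PEG1 vs. CK18, 31 of 215 members tested were called (14.4%), 8 higher and 23 lower, against 14.2% of all 73149 unigenes tested (9.49% higher, 4.69% lower), with a median of -0.27 for the members and 0.29 overall. Of the 23, 19 were cysteine-rich. Cluster-31803.73875 (1191 bp), named as the COPII vesicle GTPase SAR1, had 46.5 and 51.6 FPKM in CK18, 2.44 and 0.63 in PEG1, and 17.0 and 23.9 in PEG2. It fell by 5.65 ± 0.65 on the log2 scale in PEG1 (adjusted p = 0.022), with both PEG1 libraries below all others. Cluster-31803.62119 (6118 bp), with a BiP chaperone hit, had 6.85 and 7.85 FPKM in CK18 and 0.90 and 0.35 in PEG1. Of the 8 members called higher, 6 were listed at 0 in both CK18 libraries. Cluster-31803.2162 (765 bp), a Ran with its NR hit in *Aureococcus anophagefferens*, was listed at 0 in 10 libraries and had 11.7 and 4.54 FPKM in PEG1. It passed the mean FPKM threshold through PEG1 alone, so its place among the increases follows from the selection. Cluster-31803.18060 (1281 bp, Methuselah domain) went from 0 in CK18 to 4.05 and 11.1 FPKM in PEG1. Cluster-22802.0, at 0 in CK18, had 7.59 and 4.07 FPKM in PEG1, and Cluster-31803.59180 was at 0 there. Cluster-22802.0 passed the threshold only through Nacl1 and PEG1, so its increase in PEG1 is not independent of the selection either. Without scaling the calls were 14 higher and 10 lower, and with quantile normalization 9 and 11. No member or other unigene was called without CK18 replicate 1 or 2 or PEG1 replicate 1 or 2, and 50 and 49 members were called without PEG2 replicate 1 and 2.

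In PEG2 vs. CK18, limma called 0 of 215 members tested and 0% of all unigenes tested, while 33 members and 10576 unigenes had an unadjusted p under 0.05. The cysteine-rich members had a median change of 0.39 there. The sum over CHLNCDRAFT_55572 changed by 0.49 ± 0.37 (adjusted p = 0.598), and the 2 libraries of PEG2 stood at 231257 and 118534 FPKM, the lower one between those of CK18. All comparisons with CK18 share its 2 libraries, and their changes are therefore not independent.

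Between doses, 90 of 212 members tested were called in Nacl2 vs. Nacl1 (42.5%), 21 higher and 69 lower, against 22.6% of all unigenes tested (14.6% higher, 7.94% lower). Of the cysteine-rich members, 59 of 107 were lower and 3 higher. Summed by NR hit, 53 of 110 sums holding a member were called, 23 higher and 30 lower. Leaving out a library of Nacl1 or Nacl2 gave fewer calls, 48 and 47 without Nacl1 replicate 1 and 2, and 37 and 32 without Nacl2 replicate 1 and 2. In PEG2 vs. PEG1, 20 of 215 were called (9.3%), 15 higher and 5 lower, against 7.89% of all (1.93% higher, 5.96% lower). Cysteine-rich members gave 14 of the 15, such as Cluster-31803.49961 with 23.7 and 25.9 FPKM in PEG1 and 135 and 129 in PEG2 (2.84 ± 0.20, adjusted p = 0.0305). Without scaling the PEG split was 5 higher and 7 lower, with quantile normalization 2 and 4, with all 12 libraries in 1 fit 7 and 7, and no call was left without any 1 of the 6 libraries.

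The 69 members of the G alpha class were mostly small GTPases and translation factors. The highest was Cluster-31803.58891 (1060 bp), named Ran, a GTPase of nuclear transport, with a mean of 418 FPKM. It had 435 and 377 FPKM in CK18, 549 and 572 in Nacl1, 661 and 637 in Nacl2, 244 and 199 in PEG1, 350 and 282 in PEG2, and 416 and 294 in CK0. It was lower in PEG1 than in CK18 (-1.40 ± 0.25, adjusted p = 0.0271). Its rise in CK18 vs. CK0 (1.05 ± 0.25, adjusted p = 0.0438) turned to -0.29 with quantile normalization, and its difference in Nacl2 missed the threshold (0.44 ± 0.14, adjusted p = 0.0642).

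Cluster-31803.78279 (1640 bp), the peptide release factor ERF3 of translation termination, had 112 and 112 FPKM in CK18 and 226 and 222 in Nacl2, a change of 0.76 ± 0.15 (adjusted p = 0.0166) that stayed under the fold threshold. Another unigene with the same NR hit, Cluster-31803.70317 (1497 bp), had 59.4 and 45.9 FPKM in CK18 and 102 and 108 in Nacl2. Cluster-31803.60711 (2543 bp), a SAR1, had 184 and 188 FPKM in CK18, 140 and 100 in Nacl1, 102 and 94.9 in Nacl2, and 66.6 and 62.9 in CK0. This SAR1 fell in both salt groups (-1.16 ± 0.18 in each, adjusted p = 0.0251 and 0.00791, limma) and rose in CK18 vs. CK0 (2.36 ± 0.23, adjusted p = 0.0141, limma), with no overlap of libraries in these comparisons. Both decreases lay near the threshold of 1. With 1 library left out they ran from -1.36 to -0.94 in Nacl1 and from -1.257 to -1.013 in Nacl2, and the Nacl1 call rested on every library. In the 15 ADP-ribosylation factors, GTPases of vesicle coats, 6 of 14 tested rose and 1 fell in Nacl2 vs. CK18, and of the 10 Rab or Ras proteins 0 rose and 2 fell. Over all unigenes tested, 22.4% rose and 12.9% fell, and neither count was tested against these shares.

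The 3 members that SwissProt and KO named G protein alpha subunits were low. The names are from the slime mold *Dictyostelium discoideum*, and the NR hits were in the oomycetes *Albugo candida*, *Saprolegnia diclina* and *Aphanomyces astaci*. Cluster-31803.8122 had a mean of 1.80 FPKM, Cluster-31803.1139 of 1.48 and Cluster-31803.1245 of 1.27, and all were chosen for their annotation after their values were seen. None of the 3 was called in Nacl1, Nacl2 or PEG1 vs. CK18, nor in CK18 vs. CK0. The 5264 unigenes with an oomycete as best NR hit, a list drawn up after these hits had been seen, held 0.55% and 0.227% of the FPKM in CK0, 0.0797% and 0.103% in CK18, 0.207% and 0.14% in Nacl1, 0.169% and 0.0816% in Nacl2, 0.171% and 0.166% in PEG1, and 0.0673% and 0.0737% in PEG2. Thus the CK0 libraries held the most. Of the members with a non-green NR hit, 4 of 7 oomycete and 17 of 31 other ones had their highest group mean in CK0, against 28 of 158 with a green alga. Their part in the values of the members was not tested.

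**Figure D5:**
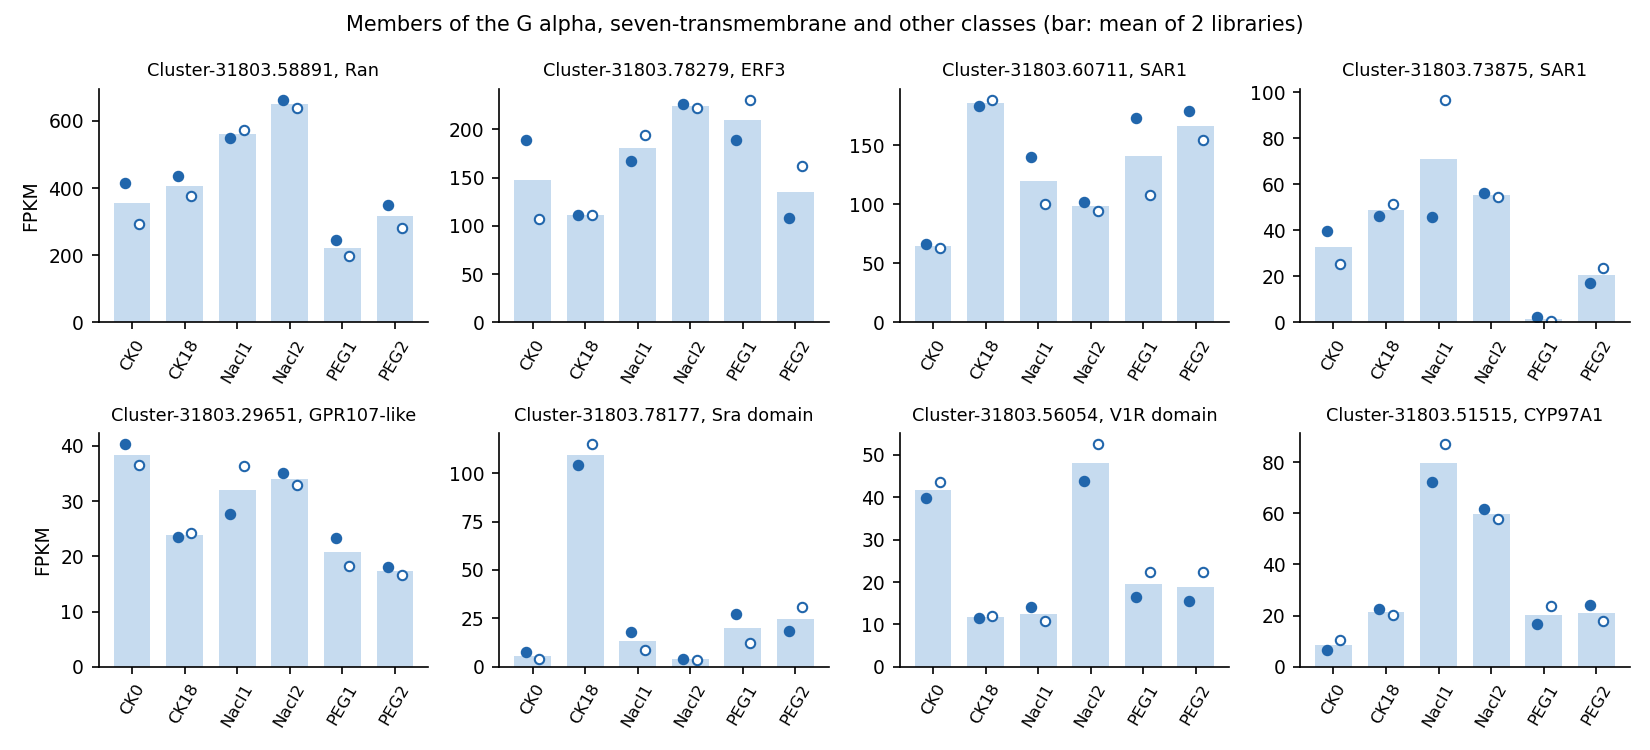
FPKM of 8 named members of the G alpha, seven-transmembrane and mixed classes in the 6 groups; bars are means of 2 libraries, filled points replicate 1 and open points replicate 2. The Sra domain member is above 100 FPKM in CK18 alone, and the SAR1 Cluster-31803.73875 is at 2.44 and 0.63 FPKM in PEG1.

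Of the 19 members of the seven-transmembrane class, all tested in Nacl2 vs. CK18, 3 were called higher and 1 lower (21.1%), where 35.3% of all unigenes were called. This difference was not tested. Its best-named member by SwissProt was Cluster-31803.29651 (3259 bp), named GPR107, a membrane protein of the Golgi and endosomes in mammals. It had 23.5 and 24.3 FPKM in CK18, 27.7 and 36.3 in Nacl1, 35.2 and 32.9 in Nacl2, 23.3 and 18.2 in PEG1, 18.1 and 16.6 in PEG2, and 40.3 and 36.5 in CK0. It was not called in any comparison, and its change in Nacl2 vs. CK18 was 0.27 ± 0.21 (adjusted p = 0.371). Cluster-31803.29659, with the same NR hit and name, was lower at 0.52 and 1.07 FPKM in CK18 and 2.14 and 2.78 in Nacl2. A further GPR107, Cluster-18468.0, had its NR hit in *Eucalyptus grandis* and 8.76 and 2.89 FPKM in CK0 but 0.96 and 1.49 in CK18. Cluster-31803.103213, named as the cAMP receptor 3 of *Dictyostelium*, had 9.39 and 3.31 FPKM in CK0 and 2.54 and 2.60 in CK18, and its NR hit was in the oomycete *Aphanomyces invadans*. No comparison called these last members.

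The other high members of this class were placed there by 1 PFAM match. Cluster-31803.78177 (455 bp), with a match to the nematode chemoreceptor family Sra and no NR hit, had 104 and 115 FPKM in CK18, 7.62 and 3.86 in CK0, 18.2 and 8.41 in Nacl1, 4.19 and 3.42 in Nacl2, 27.4 and 12.2 in PEG1, and 18.6 and 30.9 in PEG2. Its CK18 libraries stood above all others, and it fell in Nacl1 (-3.64 ± 0.37, adjusted p = 0.014), Nacl2 (-5.05 ± 0.37, adjusted p = 0.00172) and PEG1 (-3.09 ± 0.50, adjusted p = 0.0242). Cluster-31803.56054 (1685 bp), with a vomeronasal receptor match, went the other way, with 11.6 and 12.0 FPKM in CK18, 43.9 and 52.5 in Nacl2 and 39.9 and 43.6 in CK0, and it rose in Nacl2 vs. CK18 (1.78 ± 0.24, adjusted p = 0.00555). Cluster-31803.35619 (1992 bp) had the same vomeronasal match, but SwissProt and KOG named it ribose-phosphate pyrophosphokinase, an enzyme of nucleotide synthesis. It had 98.0 and 101 FPKM in CK18 and 14.7 and 18.9 in CK0, a rise of 3.40 ± 0.33 on the log2 scale (adjusted p = 0.0141). The single G gamma-like member, Cluster-29483.0 (283 bp), had 14.6 and 15.4 FPKM in CK18, 8.85 and 0.82 in Nacl2, and 71.1 and 15.5 in CK0, and no comparison called it.

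In the mixed class the highest members had enzyme or RNA-processing names. Cluster-31803.67617 (1505 bp), a phospholipase B-like protein, had 21.0 and 29.0 FPKM in CK18 and 87.5 and 86.9 in Nacl2, and it rose (1.58 ± 0.20, adjusted p = 0.0051). Cluster-31803.51515 (2437 bp) was annotated as a carotenoid ring hydroxylase. It had 22.7 and 20.1 FPKM in CK18, 72.3 and 87.0 in Nacl1 and 61.8 and 57.8 in Nacl2, above CK18 in all 4 salt libraries. It rose in Nacl1 (1.38 ± 0.19, adjusted p = 0.0208, limma) and Nacl2 (1.24 ± 0.19, adjusted p = 0.00778, limma), and was 6.46 and 10.3 FPKM in CK0. The Nacl1 call rested on every library. With 1 library left out the change ran from 1.228 to 1.551 in Nacl1 and from 1.068 to 1.391 in Nacl2. Cluster-31803.55684 (a splicing factor Cwc15 domain) and Cluster-31803.75891 (nucleolar protein 6, of ribosome assembly) were not called in the salt groups, with 39.2 and 37.1, and 21.9 and 19.4 FPKM in CK18.

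Other parts of G protein signaling were counted over the whole annotation, whatever the GO term. Over all unigenes tested, 22.4% were called higher and 12.9% lower in Nacl2 vs. CK18 (35.3% in all), and 9.02% were called in Nacl1 vs. CK18. Of 164 unigenes with PF00503 tested, 27 were higher and 14 lower in Nacl2 vs. CK18 (25% called), and 5 and 2 in Nacl1 vs. CK18 (4.27% called), both below these shares. Receptor families (PF00001, PF00002, PF00003, PF05462, PF10192) had 3 higher and 4 lower of 42 in Nacl2 vs. CK18, and the lung 7-TM family (PF06814, which GPR107 carries) 3 and 1 of 24. Of the downstream enzymes, nucleotide cyclases (PF00211), which make cyclic nucleotides, had 5 higher and 0 lower of 27 (18.5% called, below the share of all unigenes). Phosphoinositide phospholipase C (PF00387 or PF00388) had 3 higher and 0 lower, but only 7 were tested. Unigenes with a guanine nucleotide-binding protein as SwissProt hit had 1 higher and 2 lower of 40, and G gamma-like unigenes 1 and 0 of 5. In Nacl1 vs. CK18, none of the 27 cyclases, 7 phospholipases and 24 lung 7-TM unigenes was called by limma, with 3, 1 and 5 at an unadjusted p under 0.05. The lists for RGS proteins (PF00615), arrestins (PF00339, PF02752), GPHR (PF12430) and cyclic nucleotide-binding domains (PF00027) matched 0 of the unigenes used here. The deposited annotation named 4848 different PFAM families. Whether the alga lacks these proteins or the annotation lacks these families was not tested.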

How the data were processed

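The authors assembled the reads with Trinity, grouped transcripts into unigenes by Corset, mapped the reads with Bowtie 2, took read counts from RSEM and deposited the FPKM (2 decimals) used here. They also deposited annotation hits in PFAM, GO, NR, SwissProt, KO and KOG, with a score that was not used here. The genome build named in the labels is of another organism and was not used. The study lists reads per library, but counts per unigene were not used here, so no counting intervals are given and precision rests on the spread between libraries. FPKM were divided by each library's median ratio to the geometric mean (0.746 to 1.52), 0.1 was added and log2 taken. The tests used limma 3.58.1 in R 4.3.3 (intensity trend, two-sided) for unigenes reaching 0.3 FPKM in 2 or more libraries, in 3 fits: CK18 with both salt groups, CK18 with both PEG groups, and CK0 with CK18, with 3, 3 and 2 residual degrees of freedom. Called unigenes had a Benjamini-Hochberg adjusted p under 0.05 over all unigenes tested and changed by 1 or more on the log2 scale, up or down. The fit was checked on simulated data.

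The members and lists were chosen with earlier results of these data known. Named are the 4 highest members of each domain class, the 3 largest called increases and decreases of each comparison with CK18 or CK0, the 4 highest with G protein or receptor names, and those next to the threshold of 1. No sequences are printed, since none were read here. Alternatives were other pseudocounts, no filter, no scaling, quantile normalization, 1 fit of all libraries, a replicate block, sums by NR hit, and each library left out.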

Additional observations from a re-analysis of the deposited data

How the results depend on the processing

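Counts of members called moved by over 1.5 times in these cases. Without a filter on low FPKM, 35 members were called in Nacl1 vs. CK18, 6 in PEG1 vs. CK18, 57 in CK18 vs. CK0 and 0 in PEG2 vs. PEG1. The replicate number as a block gave 18 in Nacl1 vs. CK18, 0 in PEG1 vs. CK18 and 0 in PEG2 vs. PEG1. The replicate differences of 2 groups correlated at -0.0462 to 0.0572 over the unigenes tested. Whether the replicate numbers pair libraries was not tested. No other count moved by over 1.5 times under the block. In PEG2 vs. CK18, pseudocounts of 1 and 0.01 gave 1 and 3 calls and all 12 libraries in 1 fit gave 1. In PEG2 vs. PEG1, a pseudocount of 1 gave 0, FPKM as deposited 12 and quantile normalization 6, and quantile normalization gave 20 in PEG1 vs. CK18. Sums by NR hit have fewer features. Against CK18, 25 were called in Nacl1 (7 higher, 18 lower), 61 in Nacl2 (28 and 33) and 18 in PEG1 (5 and 13). In CK18 vs. CK0, 29 sums were called (24 higher, 5 lower). Between doses, 53 were called in Nacl2 vs. Nacl1 (23 and 30) and 13 in PEG2 vs. PEG1 (9 and 4). Leaving out 1 library gave 0 to 17 calls in Nacl1 vs. CK18, 0 to 50 in PEG1 vs. CK18, 51 to 94 in CK18 vs. CK0, 32 to 84 in Nacl2 vs. Nacl1 and 0 to 0 in PEG2 vs. PEG1, and it left the groups with 1 library, assumed to vary like the others. The causes were not tested.

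The sign of the change differed in 7 cases for named members. For Cluster-31803.59180 both groups were listed at 0 and the main change was 0, so no direction turned there. Cluster-31803.58891 in CK18 vs. CK0 gave -0.29 with quantile normalization. Sums by NR hit gave -0.16, -0.79 and 1.90 for Cluster-31803.93441 in Nacl1 vs. CK18, PEG1 vs. CK18 and PEG2 vs. PEG1, 1.55 for Cluster-31803.59180 in Nacl2 vs. Nacl1, -1.14 for Cluster-31803.46580 in Nacl1 vs. CK18 and 1.53 for Cluster-31803.18060 in CK18 vs. CK0. Apart from these cases, 1201 calls of named members were kept under alternatives and 422 were lost. A further 81 values that were not called in the main fit gained a call. Values called in neither fit were not counted. Scaling moved the median of all unigenes: without it, it was 0.57 in Nacl1, 0.37 in Nacl2 and 0.72 in PEG1 vs. CK18, and -1.12 in CK18 vs. CK0.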
